A study of Homo sapiens with 16 samples.

Results

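Cathepsins are proteases that work mainly in lysosomes, and 8 of them are described here in human bronchial epithelial cells: CTSV, CTSB, CTSC, CTSD, CTSH, CTSK, CTSS and CTSZ. All non-control array probes whose gene name equals one of these symbols were taken, which gave 11 of 58201 probes and 8 of 42665 gene names. The study edited the MET gene of the immortalised, nontumorigenic line 16HBE with CRISPR/Cas9, so that the receptor for hepatocyte growth factor (HGF) lost the part encoded by exon 14, and asked what this change does alone and under its ligand. RNA from 4 conditions, 4 arrays each, was hybridised to one-colour Agilent arrays. These were 16HBE-WT cells with unedited MET and no HGF, 16HBE-WT+HGF, 16HBE-ex14 without HGF and 16HBE-ex14+HGF. Cells of all 4 conditions were serum-starved for 2 h, and in the HGF conditions HGF (20 ng/mL) was then given for 24 h. The titles of the 4 16HBE-WT+HGF arrays read YY where their genotype and description labels say WT, and the latter were followed. The methods describe 4 replicates from successive weeks of culture, but the labels do not tie an array to a week, so the p-values measure the spread between these arrays. 16HBE-ex14 is 1 clone, clone F, and genotype and clone cannot be told apart.

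Most cathepsins are cysteine proteases that are made as inactive proenzymes, sorted to lysosomes through mannose 6-phosphate tags and activated there by removal of a propeptide. Some are endopeptidases and others trim peptides from an end, and cystatins block many of the cysteine members. Epithelial cells also secrete cathepsins, where they can cut collagen, laminin, elastin and other matrix proteins.

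Levels are given as log2 signal relative to the 75th percentile of the same array, so 0 is that percentile. They were compared for each probe between conditions and never between probes. Differences are log2 fold changes from limma over all 16 arrays, with Benjamini-Hochberg adjustment over the 34600 tested probes, and a call needs an adjusted p below 0.05 and a fold change above 1.5. Of the 11 cathepsin probes, 10 were tested, for 7 genes, each well above background on all 16 arrays. The probe of CTSS, an endopeptidase of antigen-presenting cells, was not well above background on any of the 16 arrays and was not tested. CTSS neighbours CTSK on the chromosome in the RefSeq gene table. Where a gene had several probes, the one with the highest mean signal stood for it in counts.

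The 16HBE cells carried epithelial markers: all 7 of EPCAM, CDH1, KRT8, KRT18, KRT19, KRT5 and KRT14 were tested. Markers of other cell types are given with the last gene lists.

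CTSV, a cysteine endopeptidase closely related to cathepsin L, lies on chr9:99795152-99795211 by its probe (hg19). On the 16HBE-ex14 arrays its levels were 3.08, 3.57, 3.14 and 3.23. On the 16HBE-ex14+HGF arrays they were 2.70, 2.34, 2.35 and 2.40. Each HGF-treated array was below each untreated one, and 3 of the 4 treated arrays lay close together. CTSV fell with HGF by 0.81 on the log2 scale (SE 0.12, 1.75-fold lower, adjusted p = 0.00271). With limma on the 8 arrays of these conditions alone the adjusted p was 0.0501, at the edge of the range from 0.000227 to 0.0501 over the alternatives, and the call ended. In 16HBE-WT cells the arrays read 3.44, 3.42, 3.61 and 3.55 without HGF and 3.09, 3.13, 3.35 and 3.38 with it. These groups did not overlap either, with all treated arrays lower, but the difference of -0.27 (SE 0.12) had an adjusted p of 1 and was not called. Between the genotypes with HGF, CTSV was 1.73-fold lower in 16HBE-ex14 (log2 fold change -0.79, SE 0.12, adjusted p = 0.000357), with all 4 arrays lower. Without HGF the difference of -0.25 had an adjusted p of 0.179, and the arrays overlapped. A picture in the study, not its text, shows CTSV among matrix organisation genes picked from these samples, so its direction is not independent evidence for that panel.

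CTSH, an aminopeptidase, differed between the genotypes without and with HGF. Its levels were 2.65, 2.71, 2.79 and 2.69 on the 16HBE-WT arrays. They were 2.06, 2.23, 1.94 and 1.92 on the 16HBE-ex14 arrays. The genotypes did not overlap, and the 16HBE-ex14 arrays were the lower ones. The log2 fold change was -0.67 (SE 0.10, 1.59-fold lower, adjusted p = 0.000428). With HGF the 16HBE-WT+HGF arrays read 2.54, 2.50, 2.63 and 2.64 and the 16HBE-ex14+HGF arrays 1.82, 1.54, 1.36 and 1.61. The gap between genotypes was then -1.0 (SE 0.10, 2-fold lower, adjusted p = 1.43e-05). Without HGF the call ended under 3 alternatives that brought the fold change below the limit, normexp background correction (-0.57), scaling to the array median (-0.54) and scaling to the E1A spike-ins (-0.50), an alternative chosen after the data were seen. With HGF it held under all 15. HGF itself moved CTSH by -0.46 in 16HBE-ex14 cells, with every treated array below every untreated one; the adjusted p of 0.0268 passed and the 1.37-fold change did not, so it was not called. Scaling to the array median made it -0.62 and called. The adjusted p did not pass in 3 alternatives, quantile normalization (0.0525), no filter on dim probes (0.0694) and the compared arrays alone (0.161), nor with any 1 of 5 arrays left out (up to 0.102). In 16HBE-WT cells the difference was -0.13, also with no overlap, at an adjusted p of 1.

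**Figure D1:**
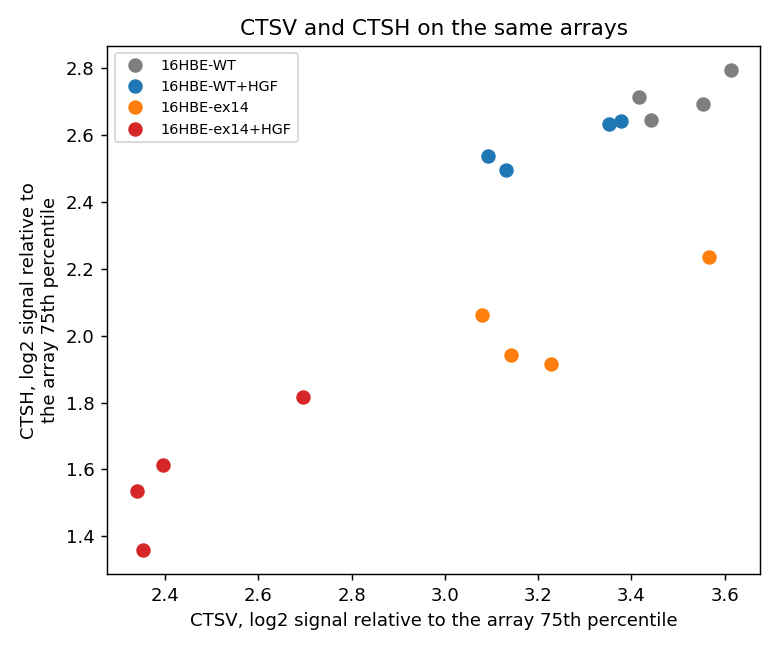
CTSV against CTSH level (log2 signal relative to the array 75th percentile) on the same 16 arrays, coloured by condition. The 16HBE-ex14+HGF arrays lie at the low end of both axes and the 16HBE-WT arrays at the high end of both, where 1 16HBE-ex14 array joins them for CTSV (3.57).

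The levels of CTSV and CTSH went together. Over the 16 arrays Pearson r was 0.88, and it was 0.78 after the mean of each condition was taken away. Over the 16 arrays and within conditions, CTSV had an r of 0.83 and 0.08 with CTSD, -0.84 and -0.28 with CTSC, 0.57 and 0.49 with CTSZ, -0.45 and 0.35 with CTSB and -0.15 and 0.66 with CTSK, so high values were not limited to CTSH. These arrays share slides and conditions, and the correlations are a description. RefSeq promoter windows, 250 bases before to 50 after the start, were found for 5 of the 8 members: CTSC, CTSD, CTSH, CTSV and CTSZ. The windows of CTSV and CTSH are shown because this pair had the highest r in both. Capitals mark matches to the GC box GGGCGG on either strand.
CTSV, GRCh38.p14, chr9:97039093-97039392, strand -: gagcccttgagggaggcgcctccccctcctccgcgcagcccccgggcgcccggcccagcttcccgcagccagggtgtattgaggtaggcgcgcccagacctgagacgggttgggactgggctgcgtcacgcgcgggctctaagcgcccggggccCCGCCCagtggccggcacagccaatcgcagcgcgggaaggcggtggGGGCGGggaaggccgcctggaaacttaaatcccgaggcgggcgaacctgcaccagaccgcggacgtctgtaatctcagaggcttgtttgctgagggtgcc
CTSH, GRCh38.p14, chr15:78944997-78945296, strand -: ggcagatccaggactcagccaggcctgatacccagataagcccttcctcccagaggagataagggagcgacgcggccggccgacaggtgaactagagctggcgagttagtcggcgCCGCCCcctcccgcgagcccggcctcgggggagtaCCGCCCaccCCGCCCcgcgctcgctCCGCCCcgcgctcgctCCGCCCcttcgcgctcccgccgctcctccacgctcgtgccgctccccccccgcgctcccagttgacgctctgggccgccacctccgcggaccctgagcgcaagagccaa
CTSV has 2 such matches and CTSH 5, and all 5 windows found had at least 1, as did 45% of the 35116 promoter windows. The share of G and C letters in the 5 windows ran from 58.0 to 81.0%, beside a median of 58.7% over all promoter windows. The AP-1 site TGANTCA was in 0 of the 5 windows and in 7.71% of all, the TATA box TATAAA in 0 and in 11.5%, and the ETS site, CCGGAA followed by GT, in 0 and in 4.14%. The E-box CACGTG was in 1, that of CTSD, and in 7.26% of all. The CLEAR element, that E-box with GT before it and AC after it, was in 0 and in 0.353%. A match is a description of these letters, and a window without one says nothing of the factor.

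CTSB, an endopeptidase that can also act as a dipeptidyl carboxypeptidase, had the opposite direction to CTSV. On the 16HBE-ex14 arrays its levels were 2.00, 2.23, 2.34 and 1.96, and on the 16HBE-ex14+HGF arrays 2.67, 2.64, 2.54 and 2.69. All treated arrays were higher than all untreated ones. The log2 fold change of 0.50 (SE 0.10, 1.42-fold, adjusted p = 0.0113) passed the p threshold and not the fold threshold. The p did not pass with array median scaling (0.34, adjusted p = 0.243), spike-in scaling (0.38, adjusted p = 0.124) and the compared arrays alone (adjusted p = 0.0977), 3 of the 15 alternatives. In 16HBE-WT cells the arrays read 2.23, 2.43, 2.39 and 2.40 without HGF and 2.53, 2.52, 2.69 and 2.54 with it, again with no overlap, and the difference of 0.21 had an adjusted p of 1. Between the genotypes CTSB differed by -0.23 without HGF (adjusted p = 0.119) and by 0.07 with it (adjusted p = 0.7).

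CTSC, a dipeptidyl peptidase that activates granule serine proteases of leukocytes, had 3 probes assigned to different transcripts. The brightest, assigned to NM_001114173, read 1.95, 1.76, 2.31 and 1.97 on the 16HBE-ex14 arrays and 2.35, 2.48, 2.66 and 2.86 on the 16HBE-ex14+HGF arrays. The treated arrays were all higher, although the lowest of them was close to the highest untreated one. CTSC rose by 0.59 by this probe (SE 0.14, 1.51-fold, adjusted p = 0.0293), just past the fold limit. The probe assigned to NM_148170 gave 0.48 (1.4-fold, adjusted p = 0.0259), under the fold limit. The probe assigned to NM_001814 gave 0.32 (adjusted p = 0.163), also with no overlap, and was not called. That probe is printed because it reads another stretch of the gene than the probe that was called. Which protein each of the 3 transcripts encodes was not examined.
CTSC probe for NM_001814: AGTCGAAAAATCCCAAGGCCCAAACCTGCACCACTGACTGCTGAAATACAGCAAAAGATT
It spans chr11:88033771-88042347 on hg19, while the called probe lies at chr11:88061281-88061340. The mean of the 3 probes was 0.47 higher (adjusted p = 0.0161) and was not called. Over the 15 alternatives the CTSC call held in 9 and ended in 6, with adjusted p from 0.00506 to 0.191. It also ended when any 1 of 6 arrays was left out, with an adjusted p of 0.069 without 16HBE-ex14 replicate 1, 0.111 without replicate 2 and 0.0887 without replicate 4. Without 16HBE-ex14+HGF replicate 2 it was 0.0515, without replicate 3 0.0973 and without replicate 4 0.0992. In 16HBE-WT cells the difference by the brightest probe was 0.22 (adjusted p = 1). Between the genotypes with HGF the brightest probe differed by 0.45 (adjusted p = 0.0287, 1.37-fold), that for NM_148170 by 0.20 (adjusted p = 0.222) and that for NM_001814 by -0.01 (adjusted p = 0.951), and the mean of the 3 by 0.21. Without HGF they differed by 0.08 (adjusted p = 0.759), -0.12 (adjusted p = 0.525) and -0.36 (adjusted p = 0.0359) in that order. None of these was called, and the probes did not agree in sign.

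CTSK, a collagen-cutting endopeptidase best known from osteoclasts, read 0.29, 0.25, 0.66 and 0.33 on the 16HBE-WT arrays and 0.69, 0.87, 0.78 and 1.03 on the 16HBE-ex14 arrays. The genotypes did not overlap, although 1 16HBE-WT array came close to the lowest 16HBE-ex14 array. The difference of 0.46 (SE 0.12, 1.38-fold, adjusted p = 0.0174) was under the fold limit. Scaling to the array median (0.60) or to the spike-ins (0.63) brought it past that limit, while the adjusted p was 0.0535 with the compared arrays alone and up to 0.058 with 1 array left out. HGF changed it by -0.18 in 16HBE-ex14 cells (adjusted p = 0.571) and by 0.04 in 16HBE-WT cells (adjusted p = 1), where the sign turned under those 2 scalings and with either of 2 arrays left out. Between the genotypes with HGF, CTSK differed by 0.24 (adjusted p = 0.2), and the arrays overlapped.

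CTSZ, a carboxypeptidase, read 3.59, 3.42, 3.47 and 3.95 on the 16HBE-WT+HGF arrays and 2.87, 2.81, 2.91 and 2.98 on the 16HBE-ex14+HGF arrays. No array of one genotype reached the range of the other. CTSZ was lower in 16HBE-ex14 by -0.71 (SE 0.17, 1.64-fold, adjusted p = 0.00832). Its second probe differed by -0.48 (adjusted p = 0.00291), under the fold limit. Without HGF the 16HBE-WT arrays were spread, at 2.89 and 3.15 on 1 slide and 3.76 and 3.64 on the other, against 2.92, 3.16, 2.85 and 2.99 on the 16HBE-ex14 arrays. The difference of -0.38 there was not called (adjusted p = 0.149), and within the slides it was 0.02 and -0.78. The second probe, without that spread, differed by -0.39 (adjusted p = 0.0118, 1.31-fold, not called).

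CTSD, the aspartic protease among the members, was at 3.35, 3.53, 3.57 and 3.52 on the 16HBE-ex14 arrays and at 3.22, 3.35, 3.24 and 3.12 on the 16HBE-ex14+HGF arrays. The highest treated array lay just below the lowest untreated one. The difference of -0.26 had an adjusted p of 0.112, and that between the genotypes with HGF, -0.26 as well, one of 0.0307 and a fold of 1.2, so neither was called. The latter p did not pass in 6 of the 15 alternatives (up to 0.439). Without HGF the genotypes differed by -0.06 (adjusted p = 0.7), a sign that turned under normexp correction and under the array median and spike-in scalings.

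**Figure D2:**
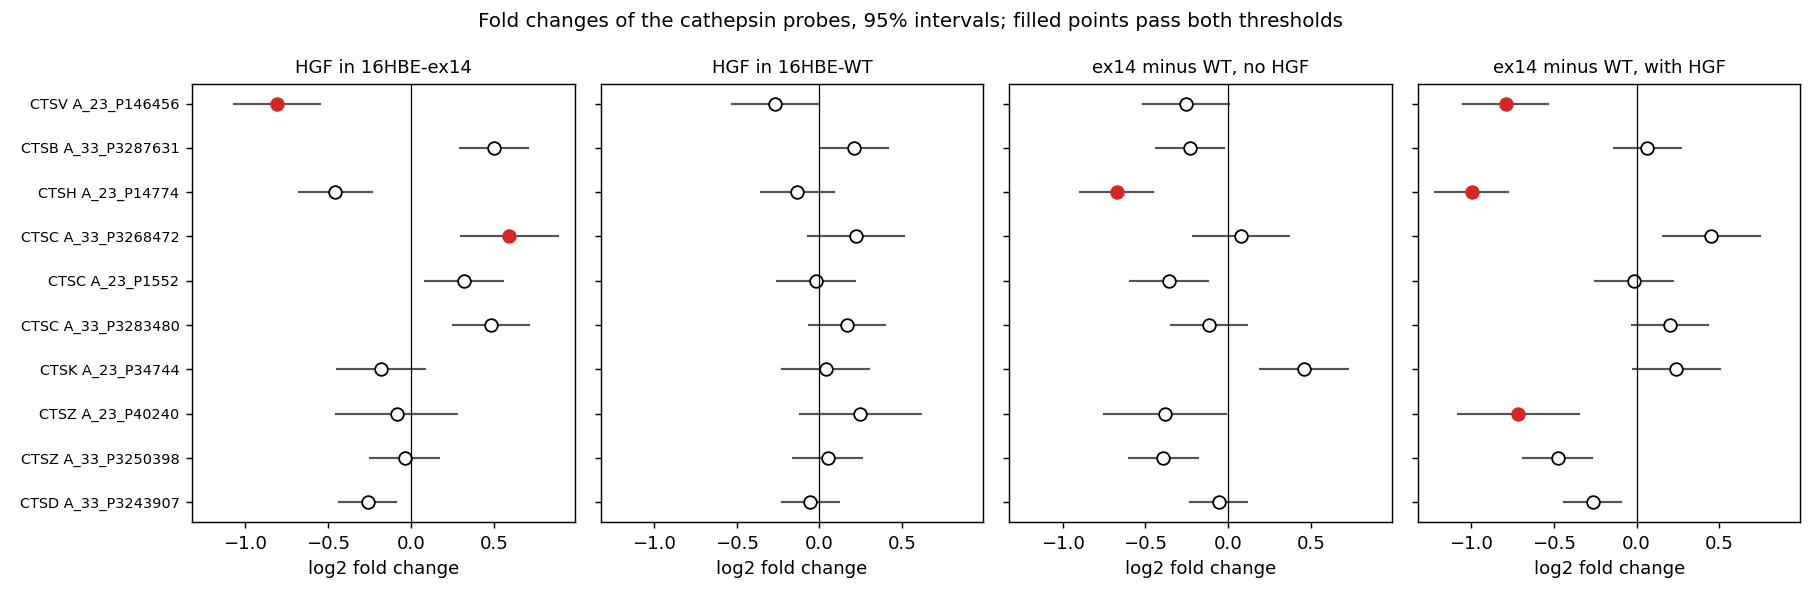
Log2 fold changes of the 10 cathepsin probes in 4 comparisons with 95% confidence intervals of limma; filled points pass both thresholds. With HGF in 16HBE-ex14 cells CTSV (-0.81) and the brightest CTSC probe (0.59) pass, and in 16HBE-WT cells none does. Between the genotypes with HGF, CTSH, CTSV and the brightest CTSZ probe pass.

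The members were chosen with earlier results of these data known. Their counts beside the shares of all genes are therefore a description and not a test of the members. Counted over genes, HGF in 16HBE-ex14 cells gave 2 calls among the 7 tested members, CTSC higher (by its brightest probe only) and CTSV lower. Of all 26368 tested genes 2.11% were called, 1.13% higher and 0.986% lower. These shares depend on the scaling, with 0.535% higher and 1.68% lower under the array median. Under that scaling CTSC was not called, and CTSV and CTSH were called lower. The arrays did not overlap for 5 of the 7, 2 higher and 3 lower, against 8.94% of all genes, 4.48% higher and 4.46% lower. The median change of the 7 was -0.18, beside 0.06 for all genes. HGF in 16HBE-WT cells gave 0 calls by limma, as for all genes (0%), and 2 members, CTSV and CTSB, had an unadjusted p below 0.05 where 4.71% of all genes did. The arrays did not overlap for 3, CTSB higher and CTSV and CTSH lower, against 2.5% of all. Each HGF comparison has its own untreated arrays.

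Between the genotypes without HGF, 1 of the 7 was called, CTSH, which was lower, against 9.25% of all genes and 4.75% in that direction (2.96% under the array median, 2.73% with spike-ins and 1.83% with normexp), and the arrays did not overlap for 2 (21.2% of all). CTSH was not called in any of these other settings. CTSK was called higher instead under the array median and with spike-ins, against 7.53% and 8.82% of all genes. With HGF 3 of the 7 were called, CTSH, CTSV and CTSZ, all lower, against 10.7% of all genes and 5.36% in that direction (3.67%, 3.63% and 2.34%), and the arrays did not overlap for 5 (24.1% of all). The genotype comparisons share arrays with the HGF comparisons, so the members' values in them are not separate evidence. The difference between the HGF responses was called for 0 of the 7 and 0% of all genes by limma (4 genes with normexp). At an unadjusted p below 0.05 it held for CTSV (-0.54, adjusted p = 0.811), CTSH (-0.32, adjusted p = 1) and CTSB (0.30, adjusted p = 1), 3 of the 7, where 4.6% of all genes did. A call in 16HBE-ex14 cells and none in 16HBE-WT cells is therefore not shown to be a difference between them.

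The 4 arrays of a condition lay on 2 slides, 2 on each. Within the slides, CTSV differed with HGF in 16HBE-ex14 cells by -0.81 on both, and CTSC by 0.56 and 0.63. Between the genotypes, CTSH differed by -0.53 and -0.81 without HGF and by -0.84 and -1.15 with it. With HGF, CTSV differed by -0.59 and -0.99 and CTSZ by -0.67 and -0.76. Slide as a block ended none of these calls.

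Other genes of the lysosome were counted from lists. Of 7 other cathepsins 5 were tested, and CTSF, a cysteine cathepsin, fell with HGF in 16HBE-ex14 cells by 0.66 on the log2 scale (adjusted p = 0.00455). CTSL differed there by -0.11 (adjusted p = 0.738), CTSA, a serine carboxypeptidase, by -0.22 (adjusted p = 0.211), CTSO by -0.50 (adjusted p = 0.287) and CTSE by 0.49 (adjusted p = 0.435). None of the 5 was called in the other comparisons, and CTSG and CTSW were not tested. Of 12 inhibitors 6 were tested and 0 were called in any comparison. Between the genotypes without and with HGF, CST5 differed by -0.58 and -0.36 (adjusted p = 0.00148 and 0.0248). CST6 differed by 0.385 and 0.52 (adjusted p = 0.0324 and 0.00525) and CST3 by -0.42 and -0.21 (adjusted p = 0.0342 and 0.297). All of these were under the fold limit. With HGF in 16HBE-ex14 cells CST3 differed by 0.26, CST5 by 0.24, CST6 by 0.31, CSTA by -0.02 and CSTB by 0.00, and the smallest adjusted p was 0.211. SERPINB13 was well above background on 3 of the 4 untreated and 1 of the 4 treated arrays there, so no difference is given. CST1, CST2, CST7, SERPINB3 and SERPINB4 were not tested, and CST4 had no probe by that name.

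The sorting and processing genes had 12 of 12 tested. LGMN, an asparaginyl endopeptidase that cleaves cathepsins, was lower in 16HBE-ex14 without HGF (-0.74, adjusted p = 0.00195) and with it (-0.69, adjusted p = 0.00277), SORT1 with it (-0.69, adjusted p = 0.000553), and TPP1 was higher with it (0.60, adjusted p = 0.0015), while its second probe was at 0.01 (adjusted p = 0.977). Of 11 membrane and proton pump genes ATP6V0D1 was higher in 16HBE-ex14 without and with HGF (0.64 and 0.75), and its second probe, dim on most arrays, was not called. Of 17 tested hydrolases GAA was higher in 16HBE-ex14 without HGF (0.64), GUSB was lower there without HGF (-0.59) and NEU1 lower without and with it (-0.68 and -0.60). With HGF GAA differed by 0.51 and GUSB by -0.58 (adjusted p = 0.0051 and 0.000449), both under the fold limit. Of 3 tested MiT/TFE factors, which drive lysosomal genes, TFEB was lower in 16HBE-ex14 than in 16HBE-WT with HGF (-0.65, adjusted p = 0.00101), and its second probe was not, with the other sign (0.15, adjusted p = 0.628). MITF was not called by its brightest probe (0.58 without HGF, adjusted p = 0.00496), but was called higher in 16HBE-ex14 without HGF by 2 others (0.71, adjusted p = 0.00777; 0.67, adjusted p = 0.02). By brightest probes, the change with HGF was called for 0 genes of these 4 lists in either genotype by limma. The list medians between the genotypes with HGF were 0.16, 0.09, -0.04 and 0.09 in that order, beside -0.26 for the members and 0.00 for all genes. The 6 lists from the other cathepsins on had 54 tested genes, of which 1.85% were called with HGF in 16HBE-ex14 cells, 9.26% between the genotypes without HGF and 11.1% with it, beside 2.11%, 9.25% and 10.7% of all genes. In class II antigen presentation, where CTSS and CTSV trim the invariant chain, 5 of 6 genes were tested. CD74, the invariant chain, was well above background on all 8 16HBE-ex14 arrays and none of the 16HBE-WT arrays in either state, so it passed the filter by the 16HBE-ex14 arrays alone. In 16HBE-ex14 its signal was at least 6.17-fold higher without HGF and at least 4.22-fold with it. The fit's adjusted p values, 5.95e-05 and 0.000327, use signal that was not measurable in 16HBE-WT. HLA-DMB was lower than in 16HBE-WT with HGF (-0.68, adjusted p = 0.00322). By brightest probes CIITA and HLA-DMA were not called. Another CIITA probe had the array pattern of CD74 and was at least 2.33-fold higher in 16HBE-ex14 without HGF and at least 1.83-fold with it (adjusted p = 1.98e-05 and 2.95e-05, with the same limit). Another HLA-DMA probe was lower with HGF in 16HBE-ex14 cells (-0.69, adjusted p = 0.0389) and lower than in 16HBE-WT with HGF (-0.75, adjusted p = 0.00535). These bounds set the mean of the measured arrays against a reference on each dim array. That reference is the lowest signal well above background there, or the probe's own signal where that is larger. Of 5 leukocyte proteases that cathepsin C activates, 2 were tested and 0 called.

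**Figure D3:**
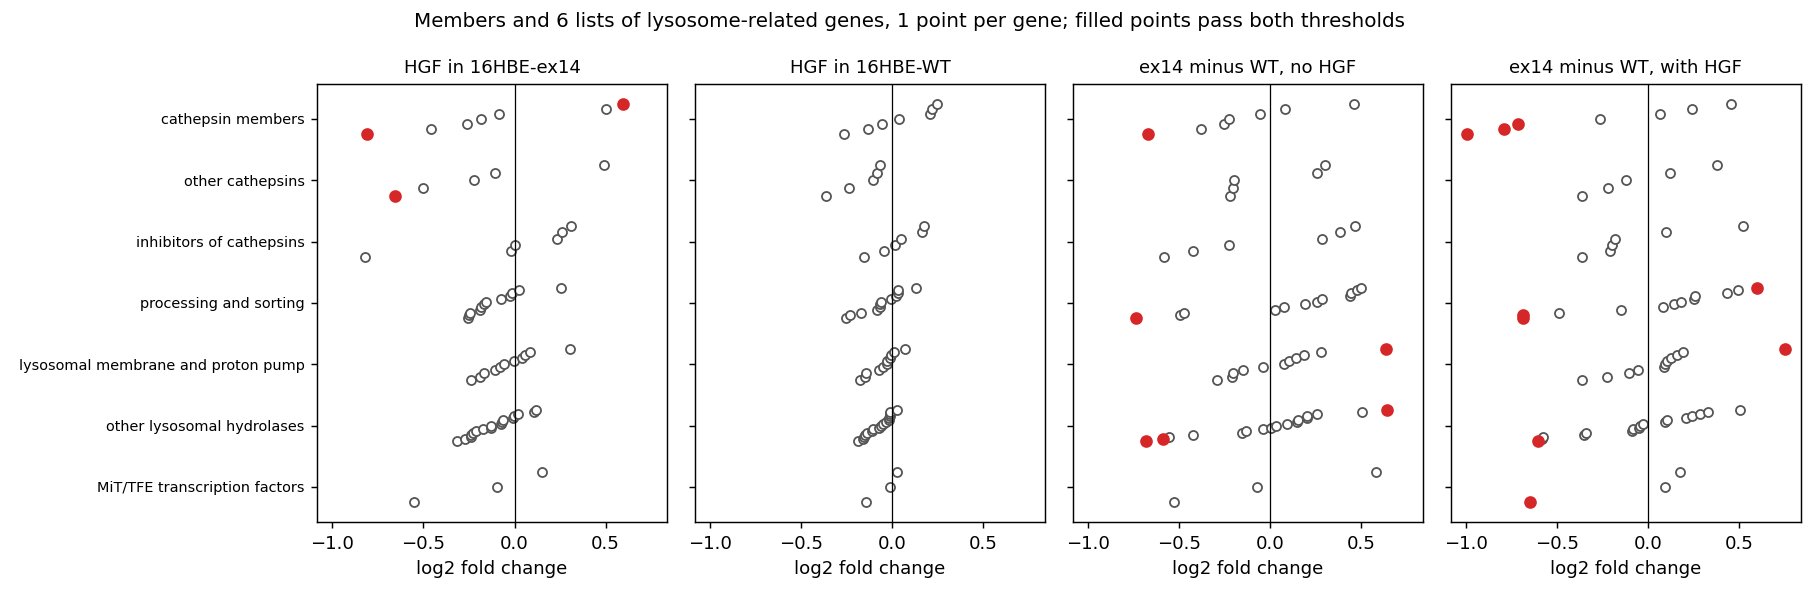
Log2 fold changes of the 7 tested cathepsin members and of 6 lists of lysosome-related genes in 4 comparisons, 1 point per gene by its brightest probe; filled points pass both thresholds. With HGF in 16HBE-ex14 cells filled points are CTSV, CTSC and CTSF.

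Markers of cell types moved in part with the cathepsins. In bulk RNA, fewer cells of a type and less RNA per cell cannot be told apart. Of the 7 epithelial markers KRT5 and KRT14, basal keratins, fell with HGF in 16HBE-ex14 cells (-2.32, adjusted p = 0.000147; -0.97, adjusted p = 0.0283), the comparison in which CTSV fell. The other 5 were not called there, KRT8 at 0.35, KRT18 at 0.15, EPCAM and KRT19 at 0.08 and CDH1 at -0.58 (adjusted p = 0.0347, under the fold limit), and the median of the 7 was 0.08. A second KRT14 probe was at -0.37 there (adjusted p = 0.502). With HGF in 16HBE-WT cells KRT5 differed by -0.63 (adjusted p = 0.864), with every treated array below every untreated one, and KRT14 by -0.495. Neither was called, and of the 7 markers 3 had a positive and 4 a negative difference, with a median of -0.11. KRT5 was also lower in 16HBE-ex14 than in 16HBE-WT cells without HGF (-2.57, adjusted p = 6.29e-07) and with it (-4.26, adjusted p = 3.26e-09), the comparisons in which CTSH was lower, as was KRT14 (-1.74, adjusted p = 9.27e-05; -2.21, adjusted p = 1.03e-05). The other 5 were not called in these comparisons. Without and with HGF, CDH1 differed by 0.38 and 0.02, KRT8 by 0.19 and 0.38, KRT18 by -0.01 and -0.02, EPCAM by -0.24 and -0.19 and KRT19 by -0.58 and -0.39 (adjusted p = 0.000426 and 0.00562, under the fold limit), and the median of the 7 was -0.24 and -0.19. Of 4 tested leukocyte markers CSF1R fell with HGF in 16HBE-ex14 cells (-1.46, adjusted p = 0.0031). Between the genotypes it differed by -0.37 without HGF (adjusted p = 0.301, not called) and was lower in 16HBE-ex14 with HGF (-1.5, adjusted p = 0.000291). PTPRC, CD14 and ITGAM were not called in any comparison, and CD68 had no probe by that name. By their brightest probes the 3 osteoclast markers ACP5, OSCAR and CALCR were not called in any comparison, but a second OSCAR probe was higher in 16HBE-ex14 than in 16HBE-WT with HGF (0.77, adjusted p = 0.00879). The 3 tested fibroblast markers were COL1A1, PDGFRB and LUM. COL1A1 differed between the genotypes by -0.56 without HGF and -0.60 with it (adjusted p = 0.116 and 0.0869) and PDGFRB by -0.53 and -0.33 (adjusted p = 0.0747 and 0.281), and neither was called. LUM was well above background on all 8 16HBE-WT arrays and on no 16HBE-ex14 array, and passed the filter by the former alone. It was at least 3.06-fold lower in 16HBE-ex14 without HGF and at least 2.23-fold with it, where the fit's adjusted p values, 2.94e-06 and 3.7e-06, use signal that was not measurable. COL1A2 and DCN were not well above background on any array and were not tested. The part of these markers in the cathepsin differences was not tested. MET itself differed by 0.06 with HGF in 16HBE-ex14 cells (adjusted p = 0.872), and HGF RNA was not well above background on any array.

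The genes most like the called members over the 16 arrays, by Pearson r of log2 values, were CXXC5 (0.97), GPC1 (0.97) and RHBDL2 (0.97) for CTSV. For CTSH they were NFE2 (0.98), PHTF1 (0.98) and ARHGAP42 (0.98). For CTSC they were LINC00941 (0.96), LYPLA1 (0.96) and OCIAD2 (0.96), and for CTSZ lnc-NUMB-2 (0.94), TMEM65 (0.94) and TRIM11 (0.91). These were the 3 highest for each among the tested genes, leaving out the members and genes named only by an accession. They are a description of the same arrays.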

How the data were processed

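Gene expression was measured in 16 samples, 4 arrays for each of 4 conditions. The values are the processed signal intensity that the authors deposited, the output of Agilent Feature Extraction 10.7.3.1 per the labels, which per the file headers is linear, local-background subtracted and detrended, with no scaling between arrays. Array positions are on hg19. Outlier spots were left out, log2 taken, the 75th percentile of each array subtracted and spots of a probe averaged. A probe was tested if 4 or more of the 16 arrays had it well above background. limma 3.58.1 in R 4.3.3 fitted all arrays together, each condition with its own mean, and gave 5 contrasts, adjusted within each by Benjamini-Hochberg. The fit was tested on simulated data. The packages jsonlite 2.0.0 and data.table (version 1.17.8), Python 3.11.15, pandas 2.3.3 and matplotlib 3.10.9 were used. The number of arrays limits the precision. Of the 11 member probes, 10 accessions were found among RefSeq genes (GRCh38.p14), all with the same symbol.

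The members and lists were chosen with earlier results of these data known. All members and genes of the first 2 lists were named, as were called genes of the other lists, at most 4 per list and comparison, and the 3 genes most alike to each called member. Alternatives were other background corrections, scalings and filters, outlier spots kept, slide and replicate blocks, another prior, fewer arrays, other adjustment and thresholds, probe means and each array left out.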

Additional observations from a re-analysis of the deposited data

Results flagged for a closer look

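In 2 of 40 groups of 4 arrays, over the 10 tested cathepsin probes, 1 array stood far from the other 3; chance gives about 1 in 20 such groups. CTSB was at 2.69 on 1 16HBE-WT+HGF array, above the others at 2.52 to 2.54. CTSV was at 2.70 on 1 16HBE-ex14+HGF array, above the others at 2.34 to 2.40, and this array was still below every 16HBE-ex14 array.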

How the results depend on the processing

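Counts of called cathepsins were recomputed under 15 alternatives, scaling to the spike-ins among them added after the data were seen, and with each of 16 arrays left out. No log2 fold change changed sign in a comparison where the member was called in any setting; CTSK with HGF in 16HBE-WT and CTSC and CTSD between the genotypes without HGF, called in none, did. With HGF in 16HBE-ex14 cells the count was 2. It was 1 with normexp correction, without the filter on dim probes, with probe means and with spike-in scaling. It was 0 with the compared arrays alone and 4 without the fold limit. With array median scaling it was 2 as well, but CTSH, lower, was called in place of CTSC, higher. Leaving out 1 array gave 1 to 2. Without HGF the genotype count was 1. It was 0 with normexp correction and 2 without the fold limit, and 1 to 1 with an array left out. Under the array median and spike-in scalings it was 1 too, but CTSK, higher, was called in place of CTSH, lower. With HGF the genotype count was 3, 5 without the fold limit, and 3 to 3 with an array left out. HGF in 16HBE-WT cells and the difference of the responses gave 0 in every setting run; the latter could not be fitted on compared arrays alone. With the replicate block (slide and row) the counts were 2, 0, 1, 3 and 0. Arrays of the same position in different conditions had a median correlation of their deviations of 0.21, no higher than others on the slide (0.21), so the positions were not taken as pairs. Between slides this median was -0.20, so arrays of the same slide deviated alike, and the main fit had no slide term. The 6 lysosome lists together, 54 tested genes, had 1 call with HGF in 16HBE-ex14 cells and 0 to 2 over the alternatives, 5 and 3 to 20 between the genotypes without HGF, and 6 and 3 to 18 with it. The cause of these changes was not tested, except that dropping a limit or arrays changes the test by construction.

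The median of all tested probes with HGF in 16HBE-ex14 cells was 0.05, and -0.11 with the array median as scale; called genes were then 24.1% higher in place of 53.3%, and 34.6% with spike-ins. Between the genotypes without HGF the median was -0.02, and 0.12, 0.15 and -0.13 with the array median, the spike-ins and normexp, with 71.8%, 76.4% and 60.9% of calls higher in place of 48.7%. With HGF it was 66.5%, 67.4% and 59.8% in place of 49.7%, the median moving to -0.14 under normexp. Signal near background was not measurable, as for CTSS.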
